A study of Mus musculus with 20 samples.

Results

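H3K4me1 regions gained without Ppara are stretches of liver chromatin where a peak of monomethylated lysine 4 on histone H3 was called in livers lacking the nuclear receptor gene Ppara and in none that carried it. A region was a consensus H3K4me1 interval overlapped by a peak, by at least 1 base, in 3 or 4 of the 4 Ppara-null libraries and in 0 of the 4 Ppara-intact libraries. Members were chosen by these H3K4me1 peak calls, so the calls and folds of H3K4me1 between Ppara-null and Ppara-intact livers are given as a description with no test. Of 103014 consensus intervals, 2020 met the rule (1.96%), and 2930 met the mirror rule and are called lost regions here. "Gained" and "lost" describe differences in peak calls between genotypes, not a change followed over time.

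Chromatin immunoprecipitation and sequencing (ChIP-seq) was done on whole liver of C57BL/6 male mice aged 9 weeks and fasted for 24 h. H3K4me1 and acetylated lysine 27 on histone H3 (H3K27ac) each had 2 replicate libraries per genotype. The labels do not say whether the 2 replicates are separate animals. The 4 genotypes were wild type (WT), Cpt2 L-/- (Cpt2 KO, deleted in liver), Ppara -/- (Ppara KO) and Cpt2 L-/- ; Ppara -/- (DKO), whose Ppara deletion is whole-body per its label. Ppara KO and DKO are called Ppara-null, and WT and Cpt2 KO Ppara-intact. H3K9ac, another acetylation mark of active chromatin, was measured in 1 WT and 1 Cpt2 KO liver. The Cre that removes Cpt2 is not given in the sources used here, and since Ppara is absent from all cells, effects within hepatocytes and effects reaching the liver from other organs cannot be told apart.

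H3K4me1 is deposited over enhancers, where it can precede activity, and at the flanks of promoters, whose centres carry H3K4me3 when active. H3K27ac marks the enhancers and promoters in use. Ppara is a fatty-acid-binding nuclear receptor that pairs with the retinoid X receptor and switches on hepatic fatty acid oxidation and ketone body synthesis during fasting. Cpt2 is the inner mitochondrial membrane enzyme that re-forms long-chain acyl-CoA for beta-oxidation.

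The regions lay mostly far from gene starts, yet 116 of the 1960 on chromosomes with a start table (5.92%) overlapped the window from 250 bases before to 50 after a RefSeq gene start (assembly GRCm38.p6, which is mm10). The share among all consensus intervals was 5.79%. Of the 6 such windows at the most enriched regions, 3 are printed below, 5′ to 3′ in the gene's direction, because they carry results described further on. The Pde6h window, chr6:136954273-136954572 on the plus strand, lay wholly in a region that also gained H3K27ac. Pde6h encodes the inhibitory subunit of the cone phosphodiesterase of the retina. The Gm36048 window, chr12:79798888-79799187 on the minus strand, lay wholly in 1 of the 7 regions assigned to the DNA repair gene Rad51b. The Arhgef2 window, chr3:88615893-88616192 on the plus strand, shared 214 of its 300 bases with a region called in all 4 Ppara-null libraries. Arhgef2 encodes a microtubule-bound guanine nucleotide exchange factor. Capitals mark a match to TGANTCA, the pattern searched for AP-1, in which N took any base and here is A. The other letters hold no match to any motif searched.
Pde6h: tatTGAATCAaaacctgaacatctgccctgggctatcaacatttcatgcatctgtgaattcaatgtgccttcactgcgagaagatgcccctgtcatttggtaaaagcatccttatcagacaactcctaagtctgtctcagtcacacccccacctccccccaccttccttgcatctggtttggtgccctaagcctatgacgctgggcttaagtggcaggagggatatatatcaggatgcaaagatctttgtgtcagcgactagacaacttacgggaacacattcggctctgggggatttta
Gm36048: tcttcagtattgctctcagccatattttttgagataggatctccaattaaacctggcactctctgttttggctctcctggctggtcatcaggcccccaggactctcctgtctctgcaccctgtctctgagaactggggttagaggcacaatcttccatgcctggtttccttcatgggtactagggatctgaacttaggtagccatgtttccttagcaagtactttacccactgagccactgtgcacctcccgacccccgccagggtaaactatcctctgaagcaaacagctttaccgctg
Arhgef2: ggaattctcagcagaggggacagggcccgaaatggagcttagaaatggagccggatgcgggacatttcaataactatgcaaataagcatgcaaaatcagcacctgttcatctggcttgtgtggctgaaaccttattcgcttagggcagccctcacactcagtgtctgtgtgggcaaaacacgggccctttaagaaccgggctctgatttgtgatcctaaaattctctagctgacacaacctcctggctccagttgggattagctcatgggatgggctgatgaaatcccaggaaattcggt

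Motifs were searched on both strands of the 128 windows that a region overlapped, and of all 32851 windows. The nuclear receptor half-site AGGTCA was found in 13.3% of the 128 windows and in 16.3% of all. Its direct repeat with 1 base between, AGGTCANAGGTCA, the kind of element Ppara binds and one that contains the half-site, was found in 0 of the 128 and in 0.0396% of all. The liver factor motifs of HNF4 (CAAAGTCCA), FOXA (TGTTTAC) and C/EBP (TTGCNNCAA) stood at 0.781%, 3.91% and 1.56%, against 0.475%, 3.65% and 2.08% of all windows. The AP-1 pattern (TGANTCA, with any base at N) stood at 9.38% against 7.81%, and STAT (TTCNNNGAA) at 7.03% against 8.3%. These shares describe letters in the start windows alone, since no genome was at hand for the regions away from starts.

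Which libraries made the calls was uneven. Peaks lay on 780 of the regions in Ppara KO 1, on 1842 in Ppara KO 2, on 1885 in DKO 1 and on 1950 in DKO 2. Ppara KO 1 thus stood apart, and 1240 regions (61.4%) were called in the other 3 Ppara-null libraries but not in it. Only 397 regions (19.7%) were called in all 4.

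**Figure D1:**
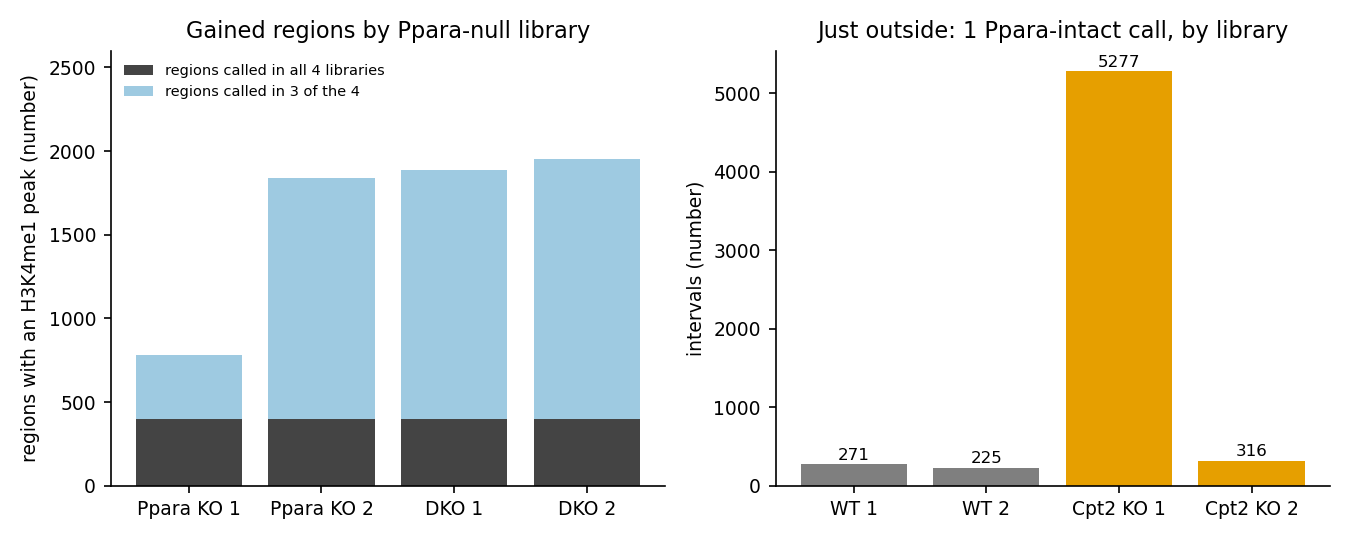
Left, number of gained regions with an H3K4me1 peak in each Ppara-null library (dark, the 397 called in all 4; light, those called in 3). Right, number of intervals just outside the rule, with peaks in 3 or 4 Ppara-null libraries and in 1 Ppara-intact library, by that library: Cpt2 KO 1 holds 5277 and the other 3 libraries 225 to 316 each.

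The intervals just outside the rule showed the same unevenness. Another 6089 intervals had peaks in 3 or 4 Ppara-null libraries and in 1 Ppara-intact library, and in 5277 of them that library was Cpt2 KO 1 (271 for WT 1, 225 for WT 2, 316 for Cpt2 KO 2), as the plot of calls by library shows. A further 3323 intervals had 2 Ppara-null calls and no Ppara-intact call, with a median Ppara-null fold of 5.24, against 5.55 for regions with 3 calls. Without Cpt2 KO 1 the rule gave 7297 regions. It gave 467, 532 or 575 when DKO 2, DKO 1 or Ppara KO 2 was left out and calls in all 3 remaining Ppara-null libraries were asked for.

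These calls moved with a property of the peak lists. The smallest H3K4me1 peak was 196 to 200 bases wide in WT 1, WT 2, Cpt2 KO 2 and Ppara KO 1, and 210 to 221 bases in Cpt2 KO 1, Ppara KO 2, DKO 1 and DKO 2. Within the first 4 libraries, 7312 intervals were called in Ppara KO 1 and in no Ppara-intact library, and 3741 the other way round. Within the second 4, 3602 intervals were called in all 3 Ppara-null libraries and not in Cpt2 KO 1, and 6652 the other way round. The 397 regions called in all 4 Ppara-null libraries are those that met both contrasts, against 622 in the mirror direction. What peak width contributes to the 1240 regions not called in Ppara KO 1 was not tested. Results below are for all regions, and some are also given for the 397 and for the 1240. Peak names carry the same number in both marks for 8 of 8 libraries, so the H3K27ac libraries appear to come from the same livers rather than from further animals.

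Enrichment at the regions was modest. Fold enrichment is the authors' ratio of ChIP signal to input at a peak's summit. The only input listed for H3K4me1 and H3K27ac is pooled, with none per genotype. The median over regions was 5.28 in Ppara KO 1, 5.47 in Ppara KO 2, 5.68 in DKO 1 and 5.83 in DKO 2, and the medians over all intervals called in those libraries were 6.0, 6.2, 6.22 and 6.23. The regions' medians sat at the 30.6th to 41.4th percentile of each library's called intervals. Their highest folds were 12.5, 14.5, 15.1 and 21.7, so a few regions lay well above the typical peak.

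The regions sat in other places than most H3K4me1. They were 500 bases wide at the median (518 for all intervals, 659 for the 397). Of the regions 50.1% had their middle inside a protein-coding gene body, against 67.1% of all intervals and 75% of lost regions. The share was 54.9% of the 397 and 44.8% of the 1240 not called in Ppara KO 1. Within 1 kb of a gene start lay 290 of 1960 regions (14.8%), against 11.6% of all intervals and 9.01% of lost regions. The 397 regions called in all 4 libraries did not share this excess, with 9.77% within 1 kb, against 17.2% of the 1240. Within 5 kb of an interval called in all 8 libraries lay 23.1% of the regions, 29.0% of the 397 and 17.3% of the 1240. Of all intervals 46.4% did, and of lost regions 53.5%. The median gap was 23584 bases for the regions and 6512 over all intervals. The regions were thus more often isolated from constitutively called H3K4me1. Within 5 kb of another gained region lay 302 (14.95%), against 3.85% of all intervals. Of the 397 it was 23.9%, and of the 1240 it was 12.2%. Leaving out the Y, with 1 interval and 0 regions, the share of a chromosome's intervals that were gained regions ran from 1.49% on chromosome 2 to 2.47% on the X.

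H3K9ac, known from the 2 Ppara-intact livers alone, overlapped 375 regions in WT (18.6%) and 381 in Cpt2 KO (18.9%), below the 26.9% and 27.4% of all intervals. Lost regions also stood below all intervals, at 17.2% in WT and 21.5% in Cpt2 KO, so a low share was not particular to gained regions. At 1592 regions neither library had an H3K9ac interval.

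The regions called in all 4 Ppara-null libraries with the highest mean folds had no gene of the Ppara target list as a neighbour among the first 15. The top region lay inside Grin2b, an NMDA receptor subunit gene, with folds of 7.67 and 10.9 for Ppara KO and 15.2 and 18.4 for DKO. The region nearest Vwa5b1 had folds of 8.48 and 14.5 for Ppara KO and 13.4 and 9.21 for DKO. Inside Elfn1, a gene for a synaptic adhesion protein, the folds were 7.57 and 7.71 for Ppara KO and 13.8 and 16 for DKO. DKO stood above Ppara KO at Grin2b and Elfn1, and the genotypes overlapped at Vwa5b1. The 12 that followed were nearest Csnk1e (a kinase of the circadian clock), Tgfb2 (a ligand of the TGF-beta family), Aldh16a1, Wnt4 (a Wnt ligand), Arhgef2, Tbcel, Cdh10 (a cadherin), Bcas3, Ccdc146, Cd180 (a Toll-like receptor relative of B cells), Tpmt (thiopurine methyltransferase) and Nup93 (a nucleoporin). All but the Cdh10 and Cd180 regions lay within 100 kb of the gene body, and Grin2b, Elfn1, Arhgef2, Bcas3, Ccdc146, Tpmt and Nup93 held theirs.

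DKO folds stood above Ppara KO folds more often than not at the 397 regions, but no single region passed the test. The median log2 difference, DKO minus Ppara KO, was 0.13, against -0.003 over all 27042 intervals called in the 4 libraries. By limma on centred log2 folds 0 of 397 regions passed an adjusted p under 0.05 (0% of all intervals did). At an unadjusted limma p under 0.05 stood 39 regions, 37 of them higher in DKO. Of the 27042 intervals, 1499 stood there, 785 of them higher. The lowest adjusted p was 0.757. The smallest H3K4me1 peaks were 200 and 216 bases wide in Ppara KO and 210 and 221 in DKO, and their part was not tested. With 2 libraries against 2, the same fit on simulated data recovered 0% of intervals changed by 1 or by 1.5 on the log2 scale. Differences of that size were thus not detectable here.

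H3K27ac, which did not enter the rule, was more often called at the regions in Ppara-null livers. A peak lay on 345 and 347 of the 2020 regions in WT (17.1% and 17.2%), on 470 and 454 in Cpt2 KO (23.3% and 22.5%), on 645 and 669 in Ppara KO (31.9% and 33.1%) and on 808 and 895 in DKO (40% and 44.3%). The 4 genotypes did not overlap, and with or without Ppara the libraries lacking Cpt2 stood higher. Over all H3K4me1 intervals the 8 libraries ranged from 32.9% to 34.6%. Lost regions ran the other way, from 19.6% to 23.6% in Ppara-intact and from 7.0% to 8.67% in Ppara-null libraries.

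**Figure D2:**
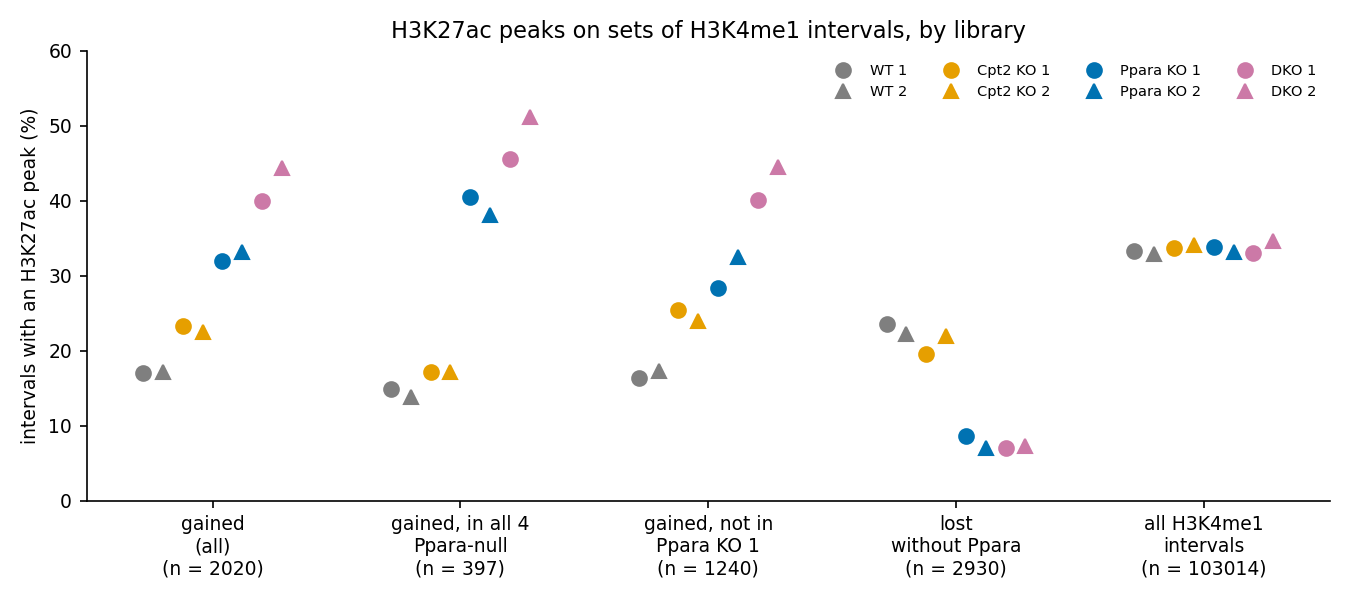
Share of H3K4me1 intervals overlapped by an H3K27ac peak (vertical axis, %) in each of 8 libraries (colour, genotype; circle and triangle, replicates 1 and 2) for gained regions, those called in all 4 Ppara-null libraries, those not called in Ppara KO 1, lost regions and all intervals. At gained regions the share runs from 17.1% in WT 1 to 44.3% in DKO 2, while over all intervals it stays between 32.9% and 34.6%.

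The plot of H3K27ac shares shows the order in both subsets of gained regions. At the 397 regions called in all 4 libraries an H3K27ac peak was found at 59 and 55 of them for WT, 68 and 68 for Cpt2 KO, 161 and 151 for Ppara KO and 181 and 203 for DKO. At the 1240 not called in Ppara KO 1 it was present at 203 and 215, 315 and 297, 351 and 403, and 497 and 551, in the same order of genotypes. The step between Ppara-intact and Ppara-null was larger at the 397. The smallest H3K27ac peak widths averaged 214 bases in Ppara-null and 211 in Ppara-intact libraries, and were 217 to 223 bases in the 4 Cpt2-null libraries and 198 to 210 in the other 4. Ppara KO, with 205 and 210 bases, had the higher share beside Cpt2 KO, with 221 and 220. The part of width in the difference between Ppara states was not tested. An effect of Cpt2 and one of that width cannot be told apart.

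The difference in acetylation calls was larger away from gene starts, a contrast that was not tested. At the 1670 regions farther than 1 kb from a start, H3K27ac was called at 12.0% to 18.9% in the Ppara-intact libraries and at 29.5% to 40.9% in the Ppara-null ones. At the 290 regions within 1 kb the ranges were 38.3% to 50% and 47.2% to 65.5%, which overlap. Peaks in Ppara-null libraries alone were found at 477 of the distal and 40 of the start-proximal regions, and peaks in Ppara-intact libraries alone at 11 and 11. Of all 88252 distal intervals, 5176 had peaks in Ppara-null libraries alone and 7501 in Ppara-intact libraries alone. Of all 11561 start-proximal intervals, 542 and 784 did. Over all intervals within 1 kb of a start the libraries ranged from 46.4% to 53.7%, and farther away from 30.4% to 32.2%.

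Taken region by region, 903 (44.7%) had no H3K27ac peak in any library, against 48.2% of all H3K4me1 intervals. A peak in all 8 was found at 198 (9.80%), against 19.1%. Peaks in Ppara-null libraries alone lay on 525 regions and in Ppara-intact libraries alone on 22, against 5926 and 8503 of all 103014 intervals. All 4 Ppara-null and no Ppara-intact libraries had a peak at 106 regions, and the reverse held at 1. Over all intervals these counts were 502 and 569. At 66 regions both DKO libraries were the only ones with a peak, against 637 of all intervals. A consensus H3K27ac interval itself gained by the same rule overlapped 156 regions (7.72%), against 0.941% of all H3K4me1 intervals. The share was 16.4% (65) of the 397 and 6.13% (76) of the 1240. An H3K27ac interval lost by the mirror rule (1.73% of all H3K27ac intervals) overlapped 1 region, against 1.12% of all H3K4me1 intervals. From the side of acetylation, 146 of the 1070 gained H3K27ac intervals (13.6%), themselves 1.63% of all H3K27ac intervals, overlapped a gained H3K4me1 region. Without DKO 1 or DKO 2 the 156 became 94 or 96.

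**Figure D3:**
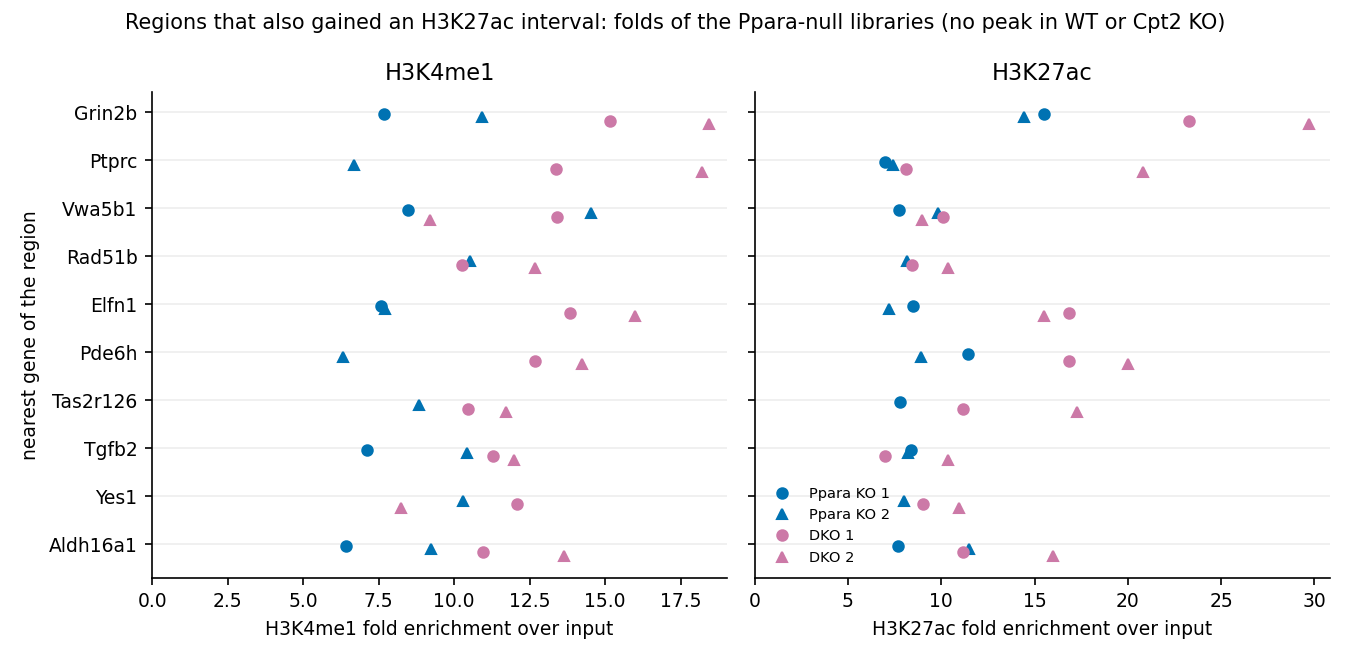
H3K4me1 (left) and H3K27ac (right) fold enrichment over input of the 10 gained regions with the highest mean H3K4me1 fold among those overlapping a gained H3K27ac interval, 1 row per region, named by its nearest gene. Points are Ppara-null libraries; WT and Cpt2 KO had no peak of either mark, and at Grin2b H3K27ac reaches 29.7 in DKO 2.

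Among regions with a gained H3K27ac interval, the one in Grin2b (chr6:136012700-136013835) was again first. Its H3K27ac folds were 15.5 and 14.5 for Ppara KO and 23.3 and 29.7 for DKO, with no peak in the 4 Ppara-intact libraries. At the Pde6h start, whose window is printed above, H3K27ac folds were 11.4 and 8.94 for Ppara KO and 16.9 and 20 for DKO. H3K4me1 there was called in Ppara KO 2 (6.32), DKO 1 (12.7) and DKO 2 (14.2) but not in Ppara KO 1. In both places every DKO fold exceeded every Ppara KO fold in H3K27ac, as the plot of folds at these regions shows. These folds were not centred per library. Over all H3K27ac peaks the median folds were also higher in DKO (7.75 and 8.21) than in Ppara KO (6.75 and 7.17). At the Tgfb2 region, 41238 bases from the gene body, H3K27ac folds were 8.38 and 8.24 for Ppara KO and 6.97 and 10.3 for DKO, which overlap. At Aldh16a1 they were 7.7 and 11.5 for Ppara KO and 11.2 and 16 for DKO, and at Elfn1 8.5 and 7.21 for Ppara KO and 16.8 and 15.5 for DKO. The others were nearest Vwa5b1, Rad51b, Ptprc, Tas2r126 (a bitter taste receptor) and Yes1 (a Src-family kinase). The Ptprc region lay 501407 bases from the body of that leukocyte gene, so its name is a neighbour and no more. The start of Gm36048 inside Rad51b had H3K27ac peaks in DKO alone, at 7.4 and 10.8, and H3K4me1 was at 7.17 for Ppara KO 2, 12.2 for DKO 1 and 11.2 for DKO 2. The Arhgef2 region likewise had H3K27ac peaks in DKO alone, at 18.6 and 33.7.

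Many regions overlapped H3K27ac intervals that were called in every genotype, and there levels could be compared. Of 1131 H3K27ac intervals overlapping a region, 380 were called in all 8 libraries. By limma on centred log2 folds over all 18281 such intervals, 24 of the 380 rose in Ppara-null livers and 11 fell (6.32% and 2.89%, against 3.19% and 4.15% of all intervals). Both directions together made 9.21%, against 7.34% of all. The median log2 difference was 0.03, against -0.01 over all. More of these calls were rises than falls, and most of the 380 did not pass. The balance was close to even without DKO 1 (14 higher, 13 lower) or Ppara KO 1 (10 and 8). The count of 35 moved with single libraries, to 13 (8 and 5) without Cpt2 KO 2, 18 without Ppara KO 1, 21 (13 and 8) without DKO 2 and 22 (14 and 8) without Ppara KO 2, and to 21 (14 higher, 7 lower) with the smallest peak width as a covariate.

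**Figure D4:**
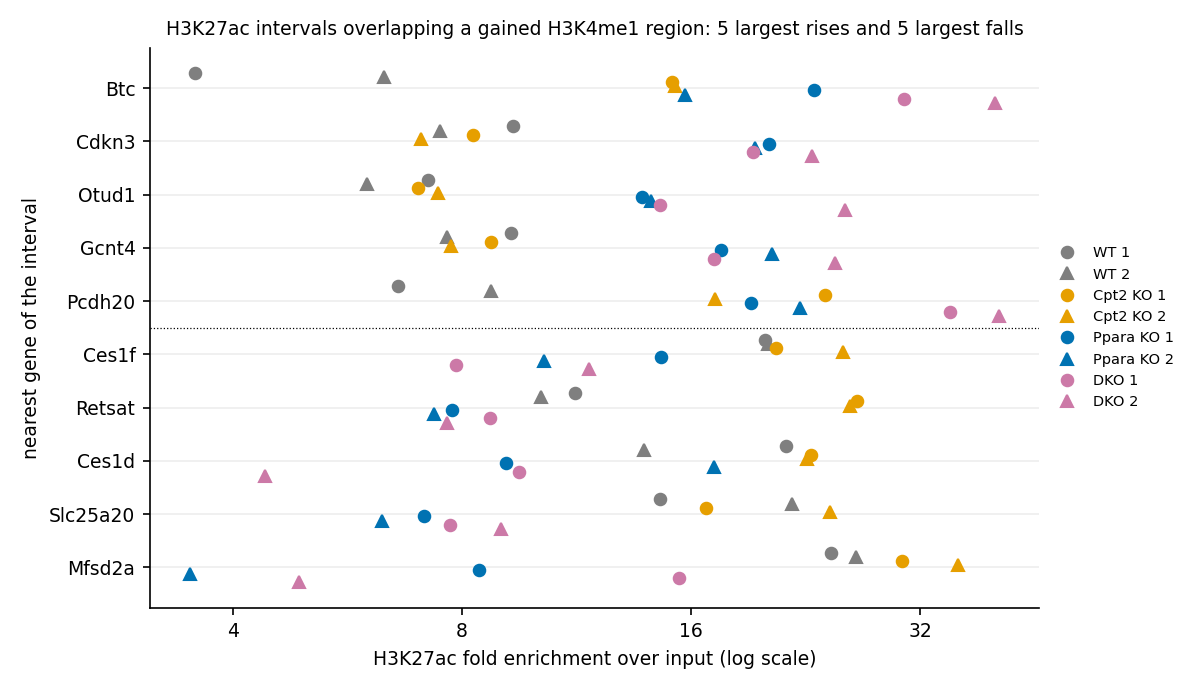
H3K27ac fold enrichment over input (horizontal axis, log scale) in 8 libraries (colour, genotype; circle and triangle, replicates 1 and 2) for the intervals overlapping a gained H3K4me1 region with the 5 largest rises (above the dotted line) and 5 largest falls by limma in Ppara-null livers. At Cdkn3 the Ppara-null libraries lie between 19.3 and 23.1 and the Ppara-intact ones between 7.06 and 9.35; at Slc25a20 between 6.29 and 9.0 and between 14.6 and 24.4.

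The 5 intervals that rose most lay outside genes. The largest rise was at an interval 83091 bases from Btc, the gene of betacellulin, a ligand of the EGF receptor (chr5:91272310-91276031). H3K27ac folds there were 3.57 and 6.33 for WT, 15.1 and 15.2 for Cpt2 KO, 23.2 and 15.7 for Ppara KO and 30.5 and 40.1 for DKO livers. All Ppara-null values exceeded all Ppara-intact ones, and WT stood lowest (log2 difference 1.58, SE 0.20, limma adjusted p = 0.000708). At the interval nearest Cdkn3, a phosphatase acting on cyclin-dependent kinases, WT livers had folds of 9.35 and 7.5, Cpt2 KO livers 8.27 and 7.06, Ppara KO livers 20.3 and 19.4 and DKO livers 19.3 and 23.1. Here the split followed Ppara alone (1.33, SE 0.17, limma adjusted p = 0.00084), and its region was called in all 4 Ppara-null libraries. The intervals nearest Otud1, a deubiquitinase gene (1.22), Gcnt4, a glycosyltransferase gene (1.22), and Pcdh20, a protocadherin gene (1.14), had limma adjusted p-values of 0.00335, 0.00154 and 0.000708. At Pcdh20, 1139583 bases away from the gene body, Cpt2 KO folds of 24.0 and 17.2 overlapped those of Ppara KO (19.2 and 22.2), so only WT (6.6 and 8.75) stood clear below.

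Of the 11 intervals that fell, 9 held a gene start and 2, Acsl1 and Slc25a20, belonged to the list of Ppara targets. The largest fall was at Mfsd2a, a transporter of lysophosphatidylcholine whose liver expression rises on fasting (chr4:122956701-122961941). H3K27ac folds there were 24.4 and 26.4 for WT, 30.3 and 35.9 for Cpt2 KO, 8.42 and 3.52 for Ppara KO and 15.4 and 4.89 for DKO livers. The groups did not overlap (log2 difference -2.10, SE 0.35, limma adjusted p = 0.00397), and the gained H3K4me1 region inside the interval, 704 bases past the Mfsd2a start, had folds of 4.71 and 4.32 for Ppara KO and 4.62 and 4.67 for DKO. At Slc25a20, the carnitine-acylcarnitine carrier of the inner mitochondrial membrane, WT livers had H3K27ac folds of 14.6 and 21.7, Cpt2 KO livers 16.8 and 24.4, Ppara KO livers 7.14 and 6.29 and DKO livers 7.71 and 9.0. Again no Ppara-null value reached a Ppara-intact one (-1.37, SE 0.19, limma adjusted p = 0.00151), and the gained region lay 1018 bases past the start. At Retsat, retinol saturase, WT livers had folds of 11.2 and 10.2, Cpt2 KO livers 26.4 and 25.9, Ppara KO livers 7.76 and 7.36 and DKO livers 8.71 and 7.65 (-1.12, SE 0.18, limma adjusted p = 0.00299). Cpt2 KO stood far above WT at Retsat while DKO stood with Ppara KO, yet the interaction of the 2 deletions did not pass (log2 -1.26, limma adjusted p = 0.142). The carboxylesterase genes Ces1d (-1.17, limma adjusted p = 0.023) and Ces1f (-1.02, limma adjusted p = 0.00673) completed the 5 largest falls. Ces1d passed in 8 of 13 alternative settings, with limma adjusted p from 0.00465 to 0.096, the highest without Ppara KO 1. The other 6, named after their values were seen, were Rdh16 (a retinol dehydrogenase, -0.80), Vwa8 (-0.75), Smarcd3 (a subunit of the BAF chromatin remodeller, -0.68), Gm4952 (-0.66), Acsl1 (long-chain acyl-CoA synthetase, -0.53) and Lonp2 (the peroxisomal Lon protease, -0.53).

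Gene starts were spread unevenly over the directions, which was not tested. A gene start lay in 9 of the 11 intervals that fell (81.8%) and in 3 of the 21 that rose on chromosomes with a start table (14.3%), against 54.1% of the 370 tested intervals overlapping a region there and 38.2% of all 17737. The gained H3K4me1 regions covered 13.0% of the width of the fallen intervals at the median and 25% of the risen ones. Among the risen, those with a start were C6 (a complement component, 0.87), Retreg1 (a receptor for autophagy of the endoplasmic reticulum, 0.70) and Gls2 (the liver-type glutaminase, 0.54), named after their values were seen. At C6 WT livers had H3K27ac folds of 7.83 and 6.85, Cpt2 KO livers 8.87 and 7.65, Ppara KO livers 15.3 and 14.4 and DKO livers 15.4 and 13.2, with no overlap between Ppara states.

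For Cpt2, the intervals overlapping gained regions passed the test about as often as all intervals. Of the 380, 27 were higher and 19 lower in Cpt2-null livers (7.11% and 5.0%, against 4.9% and 7.38% of all 18281; both directions 12.1% against 12.3%), and the median log2 difference was 0.11 against -0.01. Without centring of libraries the median over all intervals shifted to 0.25 and the calls became 97 higher and 3 lower, and with quantile normalization 36 and 15. The largest rises were at Btc (1.01), Tmcc3 (0.95), Slfn14 (0.93), Afap1l1 (0.91) and Itga9, an integrin gene (0.88). At Tmcc3 WT livers had H3K27ac folds of 7.21 and 6.5, Cpt2 KO livers 19 and 14, Ppara KO livers 6.46 and 8.0 and DKO livers 14.2 and 18.5, so libraries split by Cpt2 and not by Ppara. The largest falls were at Trib1, a pseudokinase gene with roles in liver lipid metabolism (-1.001), Zcchc2 (-0.93), Timmdc1, a complex I assembly factor (-0.85), Ptch1, the Hedgehog receptor (-0.84), and Slco1b2, a bile acid and drug uptake carrier (-0.81). At Trib1 WT livers had folds of 33.5 and 30.3, Cpt2 KO livers 18.4 and 14.6, Ppara KO livers 30.8 and 23.4 and DKO livers 17.7 and 20, again split by Cpt2. Limma adjusted p-values of these 10 ran from 0.0046 at Trib1 to 0.0284 at Itga9. With the smallest peak width as a covariate 0 of 380 passed (20 at an unadjusted p under 0.05), and standard errors rose, at Trib1 from 0.15 to 0.46. Under it Btc (1.92), Trib1 (-1.03), Zcchc2 (-1.31) and Slco1b2 (-0.98) kept differences at least as large, Slfn14 (0.82), Tmcc3 (0.33) and Ptch1 (-0.15) had smaller ones, and Afap1l1, Itga9 and Timmdc1 changed sign. The count of 46 also fell to 11 without Cpt2 KO 1, 25 without Cpt2 KO 2, 16 and 19 without Ppara KO 2 or 1, 18 and 25 without DKO 2 or 1, and 28 without WT 2.

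**Figure D5:**
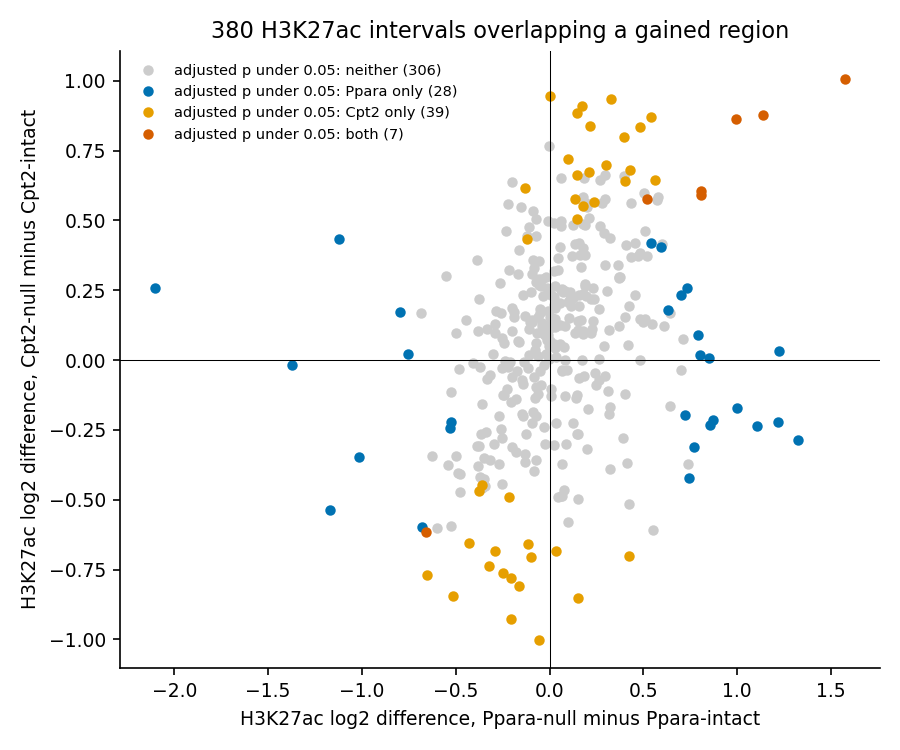
H3K27ac log2 difference for Ppara (horizontal axis, Ppara-null minus Ppara-intact) and for Cpt2 (vertical axis, Cpt2-null minus Cpt2-intact) at the 380 intervals overlapping a gained H3K4me1 region, coloured by the limma contrasts each passed. Of 74 intervals past either threshold, 7 passed both.

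In the plot of both differences, 7 of the 74 intervals past either threshold passed both, Btc among them. The interaction, which asks whether Cpt2 loss acted differently with and without Ppara, passed limma at 0 of 380 intervals (0.00547% of all, 1 interval). An unadjusted limma p under 0.05 was found at 51 of the 380, against 2771 of all 18281. At Btc the interaction was -0.89 with a limma adjusted p of 0.31.

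Listed Ppara targets held gained regions at a share below that of all intervals and lost regions at a share above it, with neither difference tested. Of 593 H3K4me1 intervals assigned to 50 target and fatty acid oxidation genes, 9 were gained regions (1.52%, against 1.96% of all intervals) and 62 were lost regions (10.5%, against 2.84%). Among the 9 were regions nearest Acot3, Acsl1, Eci2, Pdk4 (2 regions) and Slc25a20. The Eci2 region lay 139528 bases from the gene body, so that name is a neighbour and no more. Of the 9, 6 were called in all 4 Ppara-null libraries. Pdk4 encodes a kinase that shuts off pyruvate dehydrogenase on fasting. The region in the acyl-CoA thioesterase gene Acot3 (chr12:84053786-84054582) had H3K4me1 folds of 7.93 and 6.35 for Ppara KO and 5.82 and 9.44 for DKO. H3K27ac there was 9.5 and 34.5 for WT and 9.0 and 10.2 for Cpt2 KO, with no peak in the 4 Ppara-null libraries. Of the 2020 regions it was the only one with H3K27ac in all 4 Ppara-intact and no Ppara-null library. In Acsl1 the H3K27ac peaks touching the region had summit folds of 25.5, 37.4, 22.8 and 25.8 in the Ppara-intact livers and 7.6, 8.4, 5.48 and 4.73 in the Ppara-null ones. Over the whole H3K27ac interval the Ppara-null folds were 16.6, 17.2, 23.4 and 20.9 and the log2 difference -0.53, so the gap at the region also reflects which peak overlapped it. H3K4me1 there stood at 4.4 and 3.36 for Ppara KO and 6.14 for DKO 2. At Acot3, Acsl1, Slc25a20 and Mfsd2a, H3K4me1 was thus called where H3K27ac was lower or absent. The 2 Pdk4 regions had no H3K27ac peak in any library.

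In the other lists the share of gained regions ran from 0.802% to 2.16%, against the same 1.96%, and was not tested. Gained regions made up 2.16% of the intervals of inflammation, acute phase and fibrosis genes, 2.15% for cell cycle and growth, 1.75% for integrated stress and amino acids, 1.47% for bile acids, 1.46% for lipogenesis, cholesterol and lipoproteins, 1.3% for glucose and insulin signalling, 1.15% for the clock, 1.04% for xenobiotic genes and 0.802% for nuclear receptors and hepatocyte transcription factors. Those of cell cycle genes were 13 regions nearest Afp, Cdkn1b, Egfr, Gadd45g, Myc and Plk2. A Gadd45g region lay 116311 bases from the gene body, so that name is a neighbour and no more. The region 1988 bases upstream of Afp, the fetal liver serum protein, was called in Ppara KO 2 (4.5), DKO 1 (6.14) and DKO 2 (9.29), with an H3K27ac peak in DKO 2 alone (9.4). At Pparg, the adipose relative of Ppara, a region inside the gene had H3K4me1 folds of 5.4 in Ppara KO 2, 7.61 in DKO 1 and 7.58 in DKO 2 and H3K27ac peaks in DKO alone (11.4 and 6.56). The pair of top regions inside Ppargc1a, a coactivator of fasting metabolism, likewise shared H3K27ac peaks found in DKO alone (7.53 and 9.03). The region nearest Cth, cystathionine gamma-lyase, carried H3K27ac in all 4 Ppara-null libraries (6.68, 9.64, 9.4 and 7.83) and in no Ppara-intact one.

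Some genes had several regions. The 2020 regions were assigned to 1558 genes, of which 1265 had 1 region, 189 had 2 and 104 had 3 or more, and 263 of the genes also had a lost region. Pcdh20 had 8 regions among its 23 intervals, with 0 inside the gene. Rad51b had 7 among 92. Gpt2, the mitochondrial alanine aminotransferase, had 7 among 27, all inside the gene, with 3 called in all 4 Ppara-null libraries and 0 lost regions. The Gpt2 regions lay between 85507992 and 85521399 on chromosome 8, and H3K27ac was called on 4 of them, in Ppara-null libraries alone, at folds from 4.24 to 6.0. Snd1 and Cep85l had 6 each, and Spon1, Ankrd55, Frmd4b, Elmo1 and Pard3b 5 each.

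At the deleted genes, no interval near Ppara or Cpt2 was a gained region. Inside Ppara 2 intervals were lost regions, called in WT 1, WT 2 and Cpt2 KO 2 and in no Ppara-null library, and 2 intervals inside Cpt2 had the same calls. Since peaks elsewhere in both genes were called in all genotypes, these calls do not check the deletion.

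Markers of other liver cell types had few H3K4me1 intervals outside endothelial and cholangiocyte genes, and gained regions among them. Regions were 2 of 10 intervals of lymphocyte markers (both nearest Ptprc), 1 of 4 for neutrophils and monocytes (Csf3r), 1 of 11 for stellate cells and fibroblasts (Dcn), 1 of 18 for Kupffer cells and macrophages (Csf1r), 3 of 147 for endothelial cells (Clec4g, Eng and Erg) and 0 of 80 for cholangiocytes. The first 4 shares, 20%, 25%, 9.09% and 5.56%, stood above the 1.96% of all intervals on counts of 1 or 2. Of the regions behind them, those of Ptprc lay 501407 and 500547 bases from the gene body. That of Dcn lay 174605 bases away and that of Csf3r 73358, so these names are neighbours and no more. The Csf1r region lay inside its gene. The endothelial share was 2.04%, and hepatocyte markers had 1 of 160 (Cps1, 0.625%). The part of other cell types in the results was not tested. Of 9 hepatocyte markers 8 had an interval called in all 8 libraries. In whole liver, a change in the share of a cell type and a change within cells cannot be told apart.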

How the data were processed

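Peak lists of 8 H3K4me1 and 8 H3K27ac libraries were analysed, with consensus intervals per mark and the intervals of 2 H3K9ac libraries. BWA and MACS2 2.1.0 are named, with mm10, in the submitters' processing notes, and the steps between them are not given in the sources used here. Each peak's fold enrichment is a ratio deposited by the authors, as are its −log10 p and −log10 q values. Interval positions are those the authors deposited. Read depth is unknown, so no counting interval is given. Folds were compared within a mark only.

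An interval's value was the highest fold among a library's overlapping peaks. The tests used limma 3.58.1 (lmFit, then eBayes with a trend; R 4.3.3) on log2 folds, each library centred on its median, with 4 genotype means and Benjamini-Hochberg adjustment over all intervals called in every library of the fit. The fit was tested on simulated data with 200 changed intervals, where 52% of those changed by 1 on the log2 scale were recovered for Ppara and 46% for Cpt2. P-values measure the spread between the 2 replicate libraries of a genotype, and the labels do not say whether these are separate animals. A region's gene is the nearest of 21900 protein-coding gene bodies (RefSeq GRCm38.p6). Gene starts of chromosome 18 were not used here.

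Regions, gene lists and tests were chosen with earlier results of these data known. Named were the 15 regions in all 4 Ppara-null libraries and the 10 with gained H3K27ac of highest mean centred H3K4me1 fold, the 10 genes with most regions, up to 5 intervals per direction and contrast, up to 3 regions per gene list, up to 6 at gene starts, Ppara and Cpt2. Alternatives were other overlap and q cuts, no centring, quantile normalization, filled-in uncalled libraries, a width covariate, a replicate block and leaving out each library.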

Additional observations from a re-analysis of the deposited data

Results flagged for a closer look

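Groups of 4 libraries were checked for 1 value far from the rest in 51 cases, and 4 were found, where chance gives about 1 in 20. Ppara KO 1 had an H3K4me1 peak on 780 regions, against 1842 to 1950 in the other 3 Ppara-null libraries. At lost regions, Ppara KO 1 had H3K27ac peaks on 254, above the other 3 Ppara-null libraries. At the Otud1 interval the H3K27ac fold of DKO 2 was 25.5, against 13.8 to 14.6 in the other Ppara-null libraries. At the Ces1f interval the fold of Cpt2 KO 2 was 25.4, against 20 to 20.7 in the other Ppara-intact libraries.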

How the results depend on the processing

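The number of gained regions stayed at 2020 under an overlap of a larger part of the shorter feature. That setting could hardly move it, since the consensus intervals were drawn over these same libraries. The number was 1815 with −log10 q of at least 10, and ranged from 467 to 7297 when single libraries were left out. Regions with a gained H3K27ac interval numbered 94 to 181 when single libraries were left out. H3K27ac calls for Ppara (35) ranged from 13 to 41 without single libraries, became 183 (171 higher, 12 lower, of 672 tested) when uncalled libraries were filled in, and 21 with the smallest peak width as a covariate. Calls for Cpt2 (46) ranged from 11 to 55 without single libraries, became 100 without centring, 107 (81 higher, 26 lower) when uncalled libraries were filled in, and 0 with the width covariate, where standard errors rose (Trib1, 0.15 to 0.46), Btc (1.92), Trib1 (-1.03), Zcchc2 (-1.31) and Slco1b2 (-0.98) kept differences at least as large, and Afap1l1 stood at -0.0927, Itga9 at -0.51 and Timmdc1 at 0.36. The cause was not tested. Leaving out a library of 2 leaves 1 in its genotype, which the fit assumes to vary like the others. DKO against Ppara KO gave 0 calls in every setting run. Same-numbered libraries did not deviate in the same direction (correlations from -0.489 to 0.172), which gave no sign that the numbers pair the libraries. The -0.489 was for H3K4me1 in Cpt2 KO and Ppara KO. There Cpt2 KO 1 and Ppara KO 2 had smallest peaks of 211 and 216 bases, and Cpt2 KO 2 and Ppara KO 1 of 196 and 200. The part of width in that correlation was not tested. With the replicate number as a block the calls were 35 for Ppara, 51 for Cpt2 and 0 for DKO against Ppara KO. The 20 named intervals kept direction and side of the threshold in 224 of 260 settings, lost the call in 33 and changed sign in 3. The 2 libraries per genotype and unknown read depth limit all levels.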
